A study of Mus musculus with 4 samples.

Results

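The lysosome genes examined here were 32 named genes in mouse embryonic stem cells (ESCs) depleted of CNOT1. They comprised the transcription factors Tfeb and Tfe3, their inhibitor Flcn, and 29 genes for lysosomal enzymes, membrane proteins, proton pump subunits and an autophagy receptor. They were chosen by gene symbol under a rule that uses no measured value, although earlier results of these data were known when the genes were chosen, and all 32 were among the 50559 genes of the count table. Both groups were E14 mouse ESCs, grown on gelatin with leukemia inhibitory factor and serum replacement. The control cells received a non-targeting siRNA (siNT) and the others an siRNA against Cnot1 (siCnot1), each at 150 nM with collection after 48 h. CNOT1 holds together CCR4-NOT, the main complex that shortens the poly(A) tails of mRNAs. Each group had 2 biological replicates, so that the study compares 4 poly(A)+ libraries from a single cell line. The methods list more than 1 siRNA against Cnot1 and do not name the one behind these libraries, and they describe ESCs that carry a tdTomato reporter driven by the MERVL promoter, without saying whether these cells were used here.

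Lysosomes are acidic organelles in which hydrolases break down proteins, glycans and lipids delivered by endocytosis and autophagy. Their genes are coordinately controlled by the MiT/TFE transcription factors, including TFEB and TFE3, which bind a palindromic promoter sequence called the CLEAR element. When nutrients are plentiful, mTORC1 phosphorylates these factors at the lysosome and keeps them in the cytoplasm, and folliculin (FLCN) with its FNIP partners helps to activate the RAG GTPases in this step. In mouse ESCs, folliculin is known for keeping TFE3 out of the nucleus, which allows cells to leave naive pluripotency.

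Counts on genes totalled 32135824 to 32557440 per library, and 18144 genes had enough counts to be tested. Levels are given as normalized CPM, the CPM of a library scaled by edgeR's TMM method. Cnot1 itself had 913 and 986 normalized CPM in the siNT libraries and 185 and 192 in the siCnot1 libraries, 19.8% of the control level (adjusted p = 2.37e-18). Adjusted p-values are from edgeR's quasi-likelihood test over the genes tested, unless a test by DESeq2 or limma-voom is named. A gene was called higher or lower where this value was under 0.05. Of all genes tested, 15.0% were called higher and 14.7% lower in siCnot1, which is 2719 and 2668 genes. With library totals in place of TMM these were 3999 and 1563 genes, and 20 of the 32 lysosome genes were then higher and 1 lower.

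Among the lysosome genes, 16 of 32 were higher and 2 were lower in siCnot1, and 14 were not called. All 32 had passed the filter on low counts, with 259 to 12994 counts in any library, so that none depended on one group to be tested. Their median log2 fold change was 0.20, against 0.0084 for all genes tested. Among the 8929 genes tested with a mean level within the range of the 32, from 10.6 to 373 normalized CPM, 16.4% were called higher and 22.1% lower, and the median log2 fold change was -0.030. The siNT and siCnot1 libraries did not overlap for 27 of the 32 genes (84.4%), compared with 63.9% of all genes tested. The changes were moderate, since the 16 higher genes rose by 10.9% to 87.6%. These values are relative to the other genes of a library, and a change in the total mRNA of the cells was not tested. The study's own thresholds ask for an unadjusted p of 0.05 or less together with a log2 change of 1 or more in either direction, and none of the 32 met them in edgeR, DESeq2 or limma-voom. In edgeR 6.18% of all genes tested met them upward and 1.80% downward, but within the range of level of the 32 only 0.974% and 0.336%. Without the fold threshold, 17 of the 32 were above and 4 below the control at an unadjusted p under 0.05 in edgeR. No share of all genes tested is given for this rule, here or below, so such counts have no comparison. The replicates allow no statement on single cells, and in bulk RNA a change in the number of cells that express a gene and a change in its RNA per cell cannot be told apart.

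**Figure D1:**
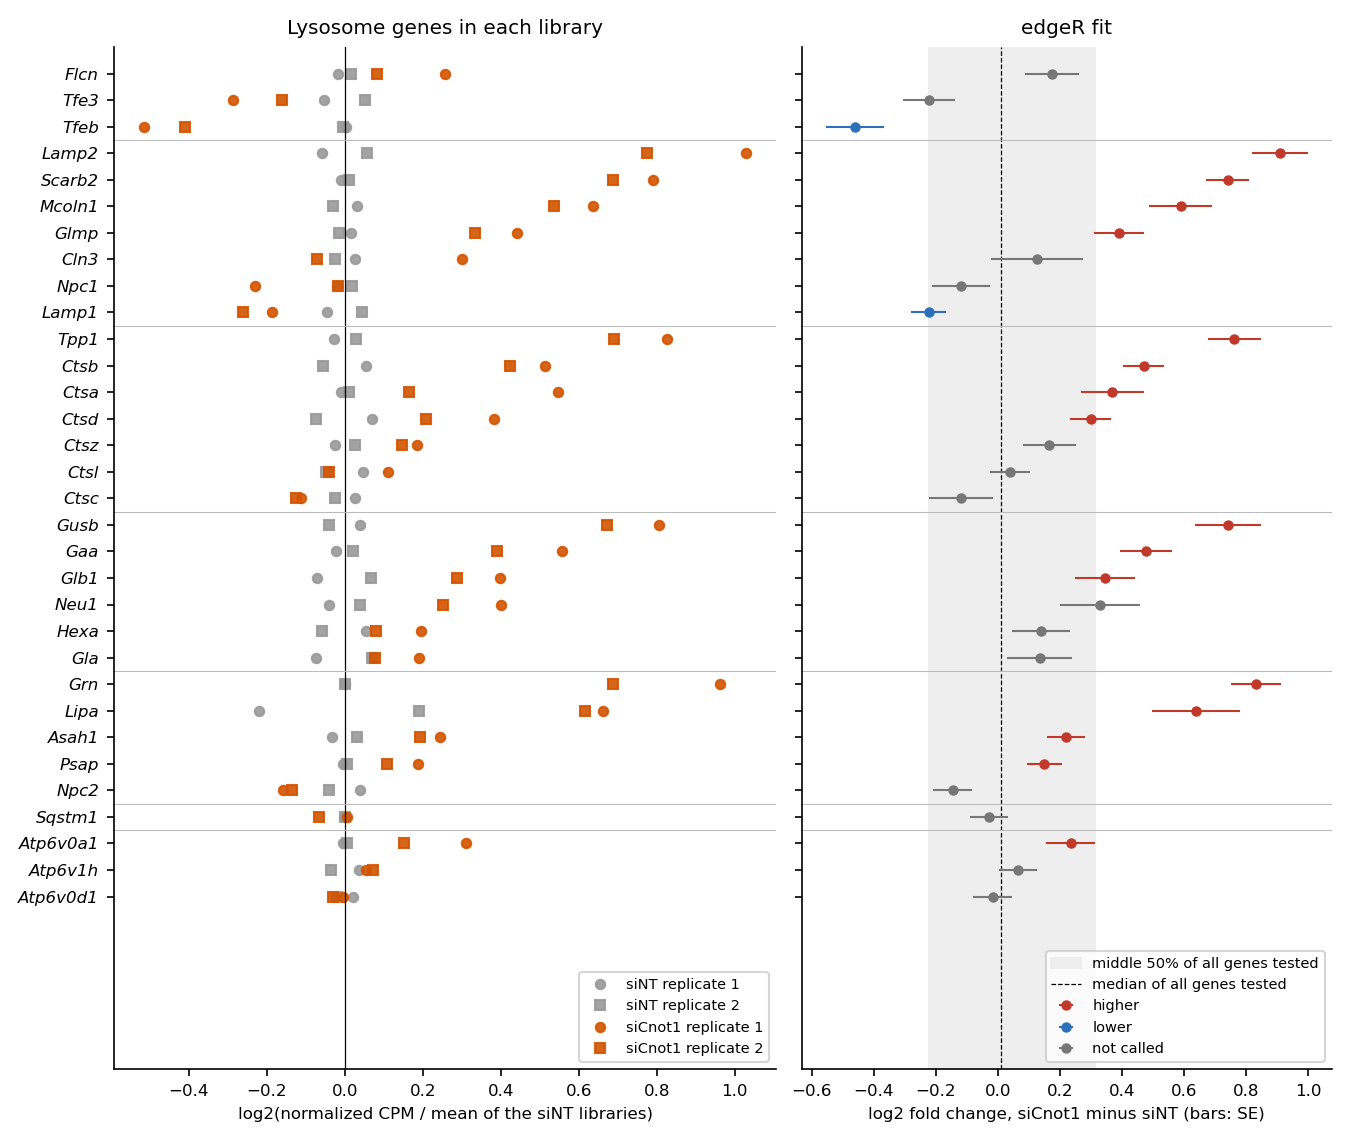
Levels of the 32 genes, grouped by role with grey lines between groups. The left panel shows each library as log2 of its normalized CPM over the mean of the siNT libraries, and the right panel the log2 fold change with its standard error, coloured by call, over the middle 50% of all genes tested. Both siCnot1 libraries lie above both siNT libraries for the 16 genes called higher, and siCnot1 replicate 1 is above replicate 2 for 27 of the 32 genes.

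The number of calls depended on having all 4 libraries. With any 1 library left out fewer genes were called higher, among the 32 and among all genes tested. The median log2 fold change of the 32 was 0.19 or 0.22 with siNT replicate 1 or 2 left out. With siCnot1 replicate 1 or 2 left out it was 0.15 or 0.27. For all genes tested the median was then 0.023, 0.022, -9.7e-05 and 0.00018 in the same order. siCnot1 replicate 1 was above siCnot1 replicate 2 for 84.4% of the 32 genes, compared with 49.4% of all genes tested, and the cause of this was not tested. The normalized CPM summed over the 32 genes reached 2477 and 2475 in the siNT libraries and 2858 and 2672 in the siCnot1 libraries, which lay further apart from each other than the controls. The calls of 7 genes were kept in each of 12 fits with another scaling, filter, tool, block or library set, namely Lamp2, Grn, Tpp1, Gusb, Scarb2, Mcoln1 and Ctsb.

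The CLEAR element is shown first, because it is the sequence by which TFEB and TFE3 recognise lysosome genes. RefSeq promoter windows of 300 bases, from 250 before to 50 after each start site (GRCm38.p6), were found by symbol for 28 of the 32 genes and not for Ctsb, Npc1, Asah1 and Atp6v1h. Each window was searched on both strands for the core CACGTG, for the core with a flanking letter (TCACGTG), for TCACGTGA and for the full element of 10 letters, which is TCACGTGA with G before and C after it, each of these containing the ones before. The sites below were picked for their range of responses, from genes that were higher through genes that were not called to the one that was lower. Capitals mark the core and the adjoining letters that match the full element, and each site is written in the direction of its gene.

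Mcoln1 (higher), chr8:3500464-3500489, plus strand: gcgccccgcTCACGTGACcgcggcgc
Ctsa (higher), chr2:164833751-164833776, plus strand: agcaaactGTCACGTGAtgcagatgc
Ctsd (higher), chr7:142387910-142387935, minus strand: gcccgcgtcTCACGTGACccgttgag
Cln3 (not called), chr7:126583342-126583367, minus strand: cgggtactGTCACGTGACccccaacc
Atp6v0d1 (not called), chr8:105566052-105566077, minus strand: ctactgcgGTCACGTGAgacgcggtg
Lamp1 (lower), chr8:13159123-13159148, plus strand: tgccgactggCACGTGACcacatcac

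The core with a flanking letter was present in the windows of 9 of the 28 genes (32.1%), and in those of 4.29% of all 27025 genes with a window, or 3.77% of all windows. The longer TCACGTGA was found for 6 of the 28 genes and 1.12% of all genes, the full element for 1 gene (Cln3) and 0.37% of all genes, and the bare core for 10 genes and 8.09%. Genes that rose were found both with and without a match. Of the 9 genes with a match, 5 were called higher and Lamp1 was called lower, and of the 19 without a match 9 were called higher and Tfeb was called lower. The median log2 fold change was 0.30 with a match and 0.17 without, within ranges from -0.22 to 0.59 and from -0.46 to 0.91. The genes that rose most, Lamp2, Grn, Tpp1, Gusb, Scarb2 and Lipa, had no match in their windows. Among the genes tested that had a window, 834 had a match, of which 16.1% were called higher and 19.3% lower. Of the 11987 without a match, 15.8% were called higher and 15.0% lower. A match is a description of these letters and not evidence of binding. The search took exact letters within these windows only, so the lack of a match is not evidence that an element is absent.

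**Figure D2:**
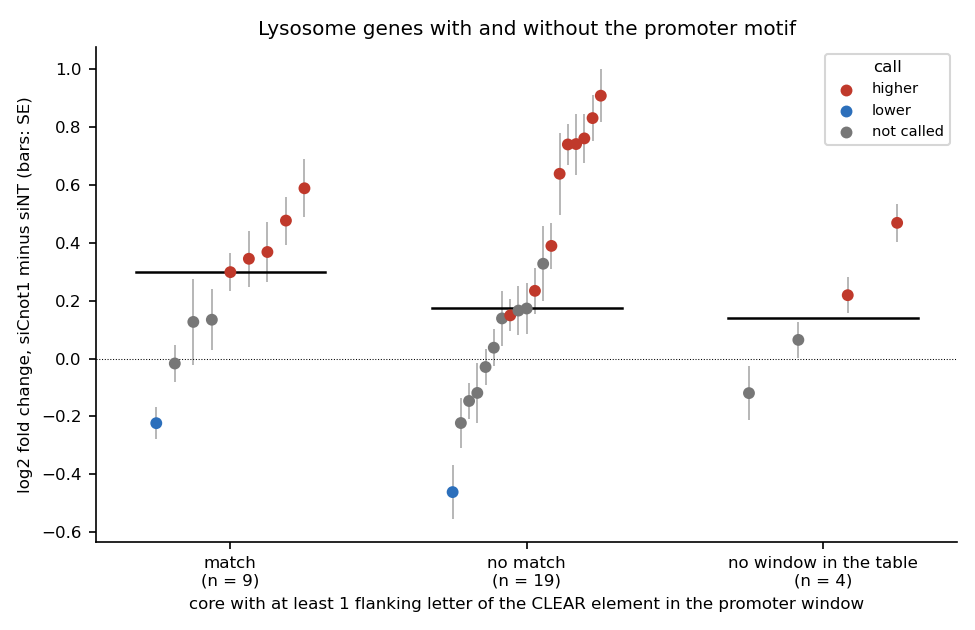
Log2 fold changes of the 32 genes (siCnot1 minus siNT, bars show the standard error, horizontal lines the medians), split by whether the promoter window held the core with at least 1 flanking letter of the CLEAR element. Genes called higher occur with a match (5 of 9) and without (9 of 19), and the highest values are among the genes without a match.

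The transcription factors themselves were not higher. Tfeb (chromosome 17, 48047962 to 48103341 in the GRCm39 positions of the count table) had 39.1 and 38.9 normalized CPM in siNT and 27.3 and 29.4 in siCnot1. Both siCnot1 libraries lay below both siNT libraries, and Tfeb fell to 72.6% of the control (log2 fold change -0.46, standard error 0.094, adjusted p = 5.84e-04). Without siNT replicate 1 the log2 fold change was also -0.46, with an adjusted p of 0.0539. Tfe3 (chromosome X, 7628769 to 7641441), the more abundant of the pair in ESCs, had 51.9 and 55.9 in siNT and 44.2 and 48.2 in siCnot1. The groups did not overlap, but the log2 fold change of -0.22 (standard error 0.085) just missed the threshold with an adjusted p of 0.0506, and it passed with DESeq2's size factors (0.0445), when genes needed 1 CPM in 2 libraries (0.0482) and with limma-voom (0.0402). On the scale of RPKM, which divides the level by exon length, Tfe3 had 13.1 ± 0.68 and Tfeb 5.17 ± 0.021 in siNT (SD, n = 2). The ratio of Tfeb to Tfe3 RPKM went from 0.41 and 0.38 in siNT to 0.34 and 0.33 in siCnot1. Flcn (chromosome 11, 59682234 to 59706138) had 44.5 and 45.6 normalized CPM in siNT and 53.9 and 47.7 in siCnot1, and its log2 fold change of 0.17 (standard error 0.086) was not significant (adjusted p = 0.141).

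Of the 7 lysosomal membrane proteins, 4 were higher and 1 was lower. Lamp2 (chromosome X, 37488524 to 37545337), a heavily glycosylated coat protein that also serves chaperone-mediated autophagy, had 35.5 and 38.5 normalized CPM in siNT and 75.6 and 63.4 in siCnot1. This rise of 87.6% was the largest among the 32 genes (log2 fold change 0.91, standard error 0.091, adjusted p = 8.84e-08). Lamp1 (chromosome 8, 13209161 to 13225338), the related coat protein, moved the other way, with 390 and 415 in siNT and 354 and 336 in siCnot1 (log2 fold change -0.22, standard error 0.056, adjusted p = 0.004). The decrease of Lamp1 was small and was not called when library totals replaced TMM (log2 fold change -0.12, adjusted p = 0.113), nor without siNT replicate 1, siNT replicate 2 or siCnot1 replicate 2 (log2 fold changes -0.27, -0.18 and -0.19). The ratio of Lamp2 to Lamp1 RPKM went from 0.030 and 0.031 in siNT to 0.070 and 0.062 in siCnot1. Lamp1 stayed far more abundant in every library.

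Scarb2 (chromosome 5, 92589170 to 92653516), the receptor that carries glucocerebrosidase to lysosomes, rose from 56.5 and 57.3 normalized CPM in siNT to 98.4 and 91.7 in siCnot1 (log2 fold change 0.74, standard error 0.071, adjusted p = 4.80e-08). Mcoln1 (chromosome 8, 3550458 to 3565232), a calcium release channel of the lysosome, rose from 21.5 and 20.6 to 32.8 and 30.6 (log2 fold change 0.59, standard error 0.10, adjusted p = 9.79e-05). Glmp, which stabilises the lysosomal transporter MFSD1, rose from 48.6 and 47.5 to 65.3 and 60.6 (log2 fold change 0.39, adjusted p = 6.36e-04). For each of these 3 genes both siCnot1 libraries lay above both controls. The call of Glmp was lost without siNT replicate 1, siNT replicate 2 or siCnot1 replicate 1 (adjusted p from 0.0511 to 0.0581). The remaining membrane proteins did not pass. Npc1, the cholesterol exporter, had 39.9 and 41.0 in siNT and 34.5 and 39.9 in siCnot1, and Cln3, the membrane protein lost in juvenile Batten disease, had 10.3 and 9.95 in siNT and 12.5 and 9.65 in siCnot1, with overlapping groups in both (adjusted p = 0.373 and 0.574).

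Of the 7 proteases, 4 were higher and none was lower, either by edgeR at an unadjusted p under 0.05 or by DESeq2 and limma-voom. Tpp1 (chromosome 7, 105394018 to 105401489), a tripeptidyl peptidase, had 35.6 and 37.0 normalized CPM in siNT and 64.4 and 58.7 in siCnot1, a rise of 69.4% (log2 fold change 0.76, standard error 0.085, adjusted p = 4.72e-07). Ctsb, the cysteine protease cathepsin B, rose from 94.0 and 87.0 to 129 and 121 (log2 fold change 0.47, standard error 0.066, adjusted p = 8.58e-06). Ctsd, the aspartyl protease cathepsin D, rose by a smaller amount, from 195 and 177 to 242 and 215 (log2 fold change 0.30, standard error 0.065, adjusted p = 0.0012). Ctsd was not called with unfiltered counts (adjusted p = 0.0802), and neither was it without siNT replicate 1, siNT replicate 2 or siCnot1 replicate 1 (0.0681, 0.148 and 0.126).

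Ctsa, the protective protein that stabilises beta-galactosidase and neuraminidase, had 38.9 and 39.4 normalized CPM in siNT and 57.2 and 43.8 in siCnot1 (log2 fold change 0.37, standard error 0.10, adjusted p = 0.008). Of the 32 genes, Ctsa had the largest ratio between the siCnot1 libraries, and without siCnot1 replicate 1 its log2 fold change was 0.16 (adjusted p = 0.393). The call was also lost without siNT replicate 1 or 2 (adjusted p = 0.250 and 0.196) and with unfiltered counts (0.167). Exons of Ctsa share 495 bases with Pltp on the opposite strand, and Pltp had 529 and 483 counts in siNT and 1519 and 1210 in siCnot1. The libraries kept the strand, but whether counting used it is not given in the sources used here, and the part of Pltp reads in the value of Ctsa was not tested. Cathepsins Ctsz, Ctsl and Ctsc were not called. Ctsl had 155 and 145 in siNT and 162 and 146 in siCnot1, with overlapping groups, and its log2 fold change of 0.037 turned to -0.011 without siNT replicate 2 and to -0.044 without siCnot1 replicate 1. Ctsz and Ctsc had log2 fold changes of 0.17 and -0.12 (adjusted p = 0.157 and 0.422).

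The 6 glycosidases, which remove sugars from glycoproteins and glycolipids, all had values above the control, and 3 of them passed. Gusb (chromosome 5, 130011278 to 130031890), beta-glucuronidase, rose from 18.0 and 17.0 normalized CPM in siNT to 30.6 and 27.9 in siCnot1 (log2 fold change 0.74, standard error 0.11, adjusted p = 1.09e-05). Its listed exons overlap those of Vkorc1l1 on the opposite strand over 44.4% of their length, while Vkorc1l1 had 500 and 537 counts in siNT and 484 and 495 in siCnot1. Gaa, the acid alpha-glucosidase that degrades glycogen, rose from 44.3 and 45.7 to 66.2 and 59.0 (log2 fold change 0.48, standard error 0.083, adjusted p = 1.20e-04), and without siNT replicate 1 its adjusted p was 0.0597. Glb1, beta-galactosidase, rose from 27.4 and 30.1 to 37.9 and 35.1 (log2 fold change 0.34, standard error 0.097, adjusted p = 0.0087). The call of Glb1 was lost with unfiltered counts (adjusted p = 0.074) and without any 1 of the 4 libraries (0.0569 to 0.160). Tmppe shares 175 exon bases with Glb1 on the same strand, Tmppe had 2223 and 2462 counts in siNT and 3350 and 3346 in siCnot1, and the part of these reads in the value of Glb1 was not tested.

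Neu1, the sialidase, was close to the threshold. It had 11.2 and 11.9 normalized CPM in siNT and 15.2 and 13.7 in siCnot1, with groups that did not overlap (log2 fold change 0.33, standard error 0.13, adjusted p = 0.0589), and it passed with upper-quartile scaling (0.0452), library totals (0.0132) and when genes needed 1 CPM in 2 libraries (0.0462). Hexa and Gla, which act on gangliosides and globosides, had log2 fold changes of 0.14 and 0.13 and were not called (adjusted p = 0.297 and 0.371).

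Among the 5 genes for lipid hydrolases, lipid transfer and activator proteins, 4 were higher. Grn (chromosome 11, 102321333 to 102327635), which encodes progranulin, the precursor of lysosomal granulins, had 55.7 normalized CPM in each siNT library and 108 and 89.7 in siCnot1. Its rise of 77.8% ranked behind that of Lamp2 alone among the 32 genes (log2 fold change 0.83, standard error 0.080, adjusted p = 5.62e-08). Lipa, the acid lipase that hydrolyses cholesteryl esters and triglycerides, had 8.33 and 11.1 in siNT and 15.3 and 14.9 in siCnot1 (log2 fold change 0.64, standard error 0.14, adjusted p = 0.0014). The siNT libraries differed more for Lipa than for the others, and without siNT replicate 1 its log2 fold change was 0.44 (adjusted p = 0.102). It was also lost without siCnot1 replicate 1 (0.0534) and with unfiltered counts (0.0633).

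Asah1, acid ceramidase, and Psap, the precursor of the saposins that present lipids to hydrolases, rose by less. Asah1 had 113 and 118 normalized CPM in siNT and 136 and 132 in siCnot1 (log2 fold change 0.22, standard error 0.062, adjusted p = 0.009), but the call was lost with unfiltered counts (0.0643) and without any 1 of the 4 libraries (0.065 to 0.147). Psap had 305 and 307 in siNT and 348 and 330 in siCnot1, and its log2 fold change of 0.15 (standard error 0.055) was the smallest called among the 32 genes (adjusted p = 0.0452). Psap was not called with DESeq2's size factors (0.0552), with unfiltered counts (0.129), with the replicate number as a block (0.0833), or without any 1 of the libraries (0.104 to 0.366). Npc2, which hands cholesterol to NPC1, had 131 and 124 in siNT and 114 and 116 in siCnot1. The groups of Npc2 did not overlap, but its log2 fold change of -0.15 (standard error 0.062) was not significant (adjusted p = 0.0785).

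Of the 3 subunits of the proton pump (V-ATPase), which acidifies the lysosome, 1 was higher. Atp6v0a1, a subunit of its membrane sector, had 53.0 and 53.4 normalized CPM in siNT and 66.0 and 59.1 in siCnot1 (log2 fold change 0.23, standard error 0.080, adjusted p = 0.0298). This call was lost in DESeq2 (0.0506), with the replicate number as a block (0.0506), with unfiltered counts (0.137) and without any 1 of the libraries (0.066 to 0.389). Atp6v1h, of the sector that hydrolyses ATP, had 112 and 106 in siNT and 113 and 115 in siCnot1, and Atp6v0d1 had 105 and 102 in siNT and 103 and 101 in siCnot1. Neither passed (adjusted p = 0.482 and 0.875). Sqstm1, the autophagy receptor p62 that binds ubiquitinated cargo and is itself degraded in lysosomes, was nearly level, with 117 and 118 in siNT and 118 and 112 in siCnot1 (log2 fold change -0.029, standard error 0.062, adjusted p = 0.776). The small values of Sqstm1 and Atp6v0d1 changed sign when library totals replaced TMM.

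The genes that rose most were not the most abundant ones. By RPKM, the most abundant of the 32 genes in siNT were Lamp1 (180 ± 7.76), Psap (110 ± 0.53), Ctsd (97.0 ± 6.89) and Atp6v0d1 (62.7 ± 1.28) (SD, n = 2 each), of which only Psap and Ctsd were higher in siCnot1. Of the 5 genes with the largest rises, Grn had 25.9 RPKM in siNT and ranked 10 of the 32, and Lamp2, Scarb2, Tpp1 and Gusb lay between 1.82 and 12.1. The summed normalized CPM of the 32 genes was 1.12 times the control in siCnot1. By role, the summed level was 1.29 times the control for glycosidases, 1.21 for proteases, 1.14 for lipid hydrolases, transfer proteins and activators, 1.06 for membrane proteins, 1.05 for proton pump subunits and 0.91 for the 3 regulators.

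**Figure D3:**
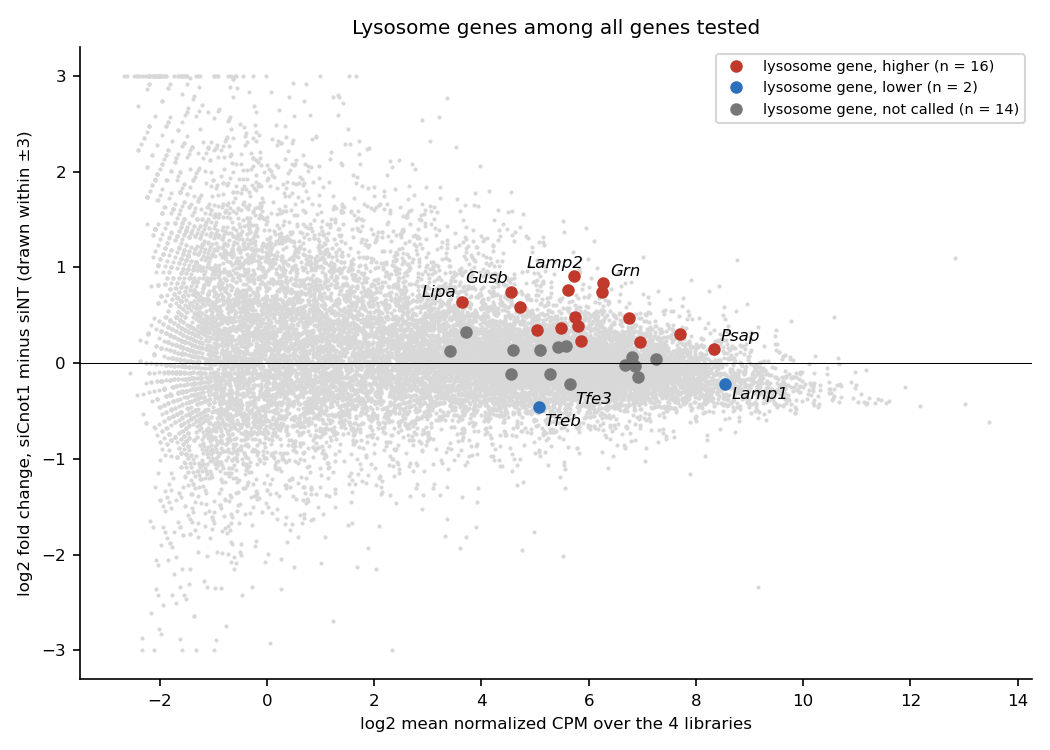
Log2 fold change (siCnot1 minus siNT) against log2 mean normalized CPM over the 4 libraries, with all 18144 genes tested in grey and the 32 lysosome genes coloured by call. The lysosome genes lie in the middle and upper range of expression, from Cln3 at 10.6 to Lamp1 at 373 normalized CPM, and 24 of the 32 have values above 0.

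Exons of 12 of the 32 genes overlap those of another gene in the table, among them Asah1, which shares 666 bases with Frg1 on the same strand, and Ctsb, which shares 774 with Fdft1 on the opposite strand. Among the 20 genes with no such overlap, 10 were higher and 2 lower. The exon length of the 32 genes had a median of 3720 bases, close to the 3361 of all genes tested, while their median level of 51.7 normalized CPM was above the 11.9 of all genes tested.

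The 32 genes were compared with 6 lists of related genes that do not contain them. Among 34 further hydrolases and activators that could be tested, 12 were higher and none was lower, with 14 above and 0 below the control at an unadjusted p under 0.05 in edgeR, and 10 and 12 higher and 0 lower by DESeq2 and limma-voom. Man2b1, lysosomal alpha-mannosidase, rose from 46.0 and 49.5 normalized CPM in siNT to 104 and 86.2 in siCnot1 (log2 fold change 0.99, standard error 0.083, adjusted p = 6.96e-09). The median log2 fold change of this list was 0.29. Leaving out siNT replicate 1 or 2 left 3 or 6 of these genes higher, leaving out siCnot1 replicate 1 or 2 left 5 or 6, and unfiltered counts gave 6.

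For further lysosomal membrane proteins the median log2 fold change was 0.052, and 9 of 26 were higher and 3 lower. Ctns, the cystine exporter, rose from 10.2 and 9.79 normalized CPM in siNT to 17.2 and 17.5 in siCnot1 (log2 fold change 0.80), and Sidt2 and Abca2 rose with log2 fold changes of 0.53 and 0.58. Without siNT replicate 1 the calls of Sidt2 and Abca2 were lost (adjusted p = 0.0531 and 0.0672). The 3 lower genes, Cd63, Pip4p1 and Cd164, were named after their values were seen and had log2 fold changes of -0.23, -0.25 and -0.17. These lower calls were not stable, since their number was 1 with upper-quartile scaling or with the replicate number as a block, and 0 with library totals, with unfiltered counts or without any 1 of the libraries. The higher calls of this list numbered 11 with library totals, 5 with unfiltered counts, 1 or 5 without siNT replicate 1 or 2, and 4 or 6 without siCnot1 replicate 1 or 2. For proton pump subunits outside the 32 genes, 3 of 18 were higher and 4 lower, and with 1 library left out 1 to 2 were higher and 0 to 2 lower. Tcirg1, an alternative membrane subunit, had 7.46 and 6.67 in siNT and 15.8 and 12.6 in siCnot1 (log2 fold change 1.01), whereas Atp6v1b2 had 205 in each siNT library and 172 and 171 in siCnot1 (log2 fold change -0.26). Atp6v0a4 was lower as well (log2 fold change -1.31) at 2.60 and 2.46 normalized CPM in siNT. Without siNT replicate 1 neither Atp6v1b2 nor Atp6v0a4 passed (adjusted p = 0.0528 and 0.0882), and Atp6v0a4 was also lost without siNT replicate 2 (0.0681) or siCnot1 replicate 2 (0.0634).

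Delivery of enzymes to the lysosome was represented by 10 genes, of which 2 were higher and none was called lower by edgeR, DESeq2 or limma-voom, with 1 below the control at an unadjusted p under 0.05 in edgeR. Igf2r, the large mannose 6-phosphate receptor, rose from 96.4 and 98.3 normalized CPM in siNT to 167 and 154 in siCnot1 (log2 fold change 0.72, standard error 0.063, adjusted p = 1.47e-08). Sort1, an alternative sorting receptor, rose as well (log2 fold change 0.54), but its adjusted p was 0.0619 without siNT replicate 1.

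Upstream of TFEB and TFE3, 2 of 25 nutrient sensing genes were higher and 2 lower. With library totals 6 were higher and 2 lower, and of all 18144 genes tested 3999 were higher and 1563 lower. With any 1 library left out fewer were called in each direction, in this list and over all genes tested. Mitf, a related transcription factor, fell from 29.5 and 34.7 normalized CPM in siNT to 23.6 and 23.8 in siCnot1 (log2 fold change -0.44, standard error 0.10, adjusted p = 0.0024), and the call was lost without siNT replicate 2 (log2 fold change -0.31, adjusted p = 0.103) or either siCnot1 library (0.0645 and 0.0608), and with unfiltered counts (0.0543). Mtor, the kinase of mTORC1, fell with a log2 fold change of -0.28, and Tsc1, which restrains mTORC1, rose with 0.39. Mtor was not called without siNT replicate 1, siNT replicate 2 or siCnot1 replicate 1 (adjusted p = 0.149, 0.0659 and 0.126), nor Tsc1 without siNT replicate 1 or siCnot1 replicate 1 (0.0767 and 0.0636). The FLCN partners Fnip1 and Fnip2 had log2 fold changes of 0.19 and 0.036 and were not called (adjusted p = 0.142 and 0.794). Tfec, the remaining family member, had 3 counts in siCnot1 replicate 1 and 0 in the other libraries, which is at or under the floor of 3 counts. This floor corresponds to 0.0896 to 0.0964 normalized CPM and covers counting error only.

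Of 39 autophagy genes, 2 were higher and 10 lower, and the median log2 fold change was -0.034. The balance turned with library totals, which gave 8 higher and 5 lower. With the same scaling 3999 of all genes tested were higher and 1563 lower, against 2719 and 2668 with TMM. Leaving out siNT replicate 1 or 2 gave 3 lower each, and leaving out siCnot1 replicate 1 or 2 gave 4 or 6. Tax1bp1, a cargo receptor, fell from 246 and 254 normalized CPM in siNT to 197 and 193 in siCnot1 (log2 fold change -0.36). Atg3, the enzyme that conjugates LC3 to lipid, had 41.5 and 34.6 in siNT and 25.3 and 25.6 in siCnot1 (log2 fold change -0.58), and Atg14, of the lipid kinase complex that starts autophagosomes, had a log2 fold change of -0.35. Atg3 was not called without siNT replicate 1 (adjusted p = 0.0527). The share called lower, 25.6%, compares with 14.7% of all genes tested and with 22.1% of genes in the range of level of the 32.

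**Figure D4:**
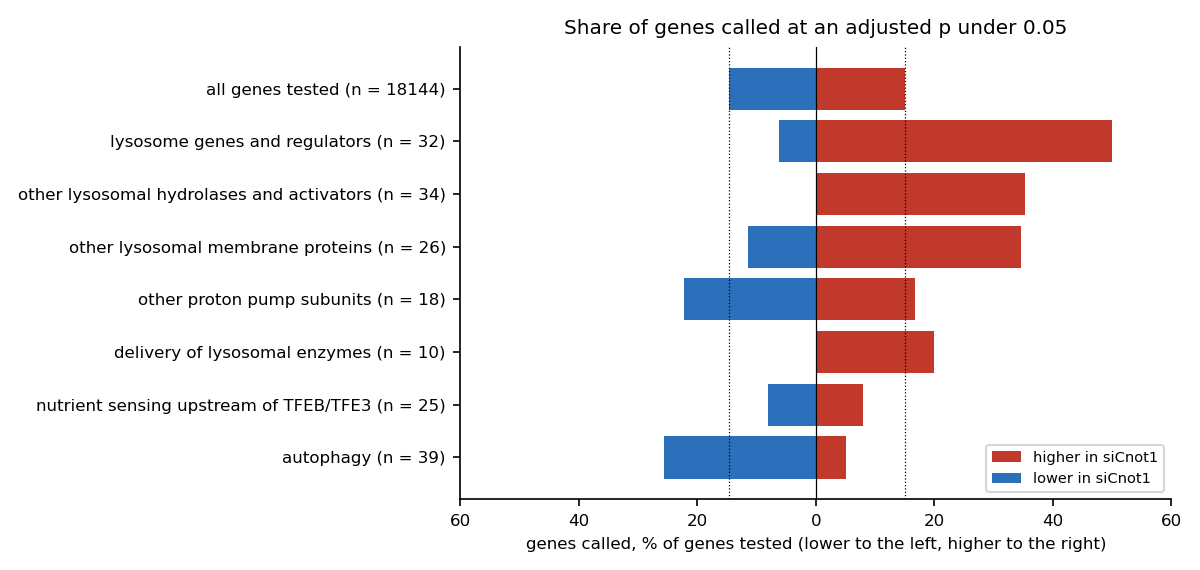
Percentage of the genes tested in each list that were called higher (right, red) or lower (left, blue) in siCnot1 at an adjusted p under 0.05, with dotted lines at the shares of all genes tested (15.0% and 14.7%). The 32 lysosome genes and regulators stand at 50% higher and 6.25% lower. Hydrolases outside them stand at 35.3% and 0%, and autophagy genes at 5.13% and 25.6%. With library totals in place of TMM, 8 autophagy genes were higher and 5 lower, and of all genes tested 3999 were higher and 1563 lower.

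Markers of cell types were measured beside these results. The ESC identity of the libraries was clear, with Pou5f1 at 878 to 1113 and Nanog at 943 to 1144 normalized CPM. The summed level of 10 pluripotency markers was 5938 and 5914 normalized CPM in siNT and 5048 and 5331 in siCnot1, and 7 of them were lower. Of 9 primitive endoderm markers, 8 could be tested and 2 were higher, Dab2 and Pdgfra. The primitive endoderm list summed to 75.1 and 79.7 normalized CPM in the siNT libraries and 89.7 and 87.7 in the siCnot1 libraries, mostly that of Lama1 with a mean of 63.1 in siNT and 65.7 in siCnot1. Foxa2 had 0 counts in 3 libraries and 4 in the fourth, whereas Gata4 had 48 and 36 counts in siNT and 78 in each siCnot1 library (adjusted p = 0.0694), and Gata6, Sox17 and Sox7 had 14 to 105 counts with overlapping groups. Of 9 fibroblast markers, 5 could be tested and 2 were higher, Pdgfrb and Col1a1, Col3a1 and Dcn had 0 counts in every library, and the summed level of 1157 and 1205 in siNT and 1280 and 1225 in siCnot1 was mostly that of Fn1. Of 6 macrophage markers, Cd68 was called higher (log2 fold change 0.43), and CD68 is itself a lysosomal protein. Itgam had 67 and 61 counts in siNT and 54 and 115 in siCnot1, with overlapping groups. The other markers Ptprc, Csf1r, Adgre1 and Lyz2 had at most 4 counts in any library, and the list summed to 19.2 and 20.9 normalized CPM in siNT and 27.4 and 26.4 in siCnot1. Of 8 trophoblast markers, Krt7 was higher and Krt18 lower among 7 tested. Krt7 had 2 and 4 counts in siNT, near the floor of 3 counts, and 16 and 22 in siCnot1. Krt18 had 160 and 157 counts in siNT and 99 and 52 in siCnot1. The trophoblast list had a summed level of 28.6 ± 1.00 in siNT and 27.0 ± 2.81 in siCnot1 (SD, n = 2). The part of these changes in the values of the lysosome genes was not tested.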

How the data were processed

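The authors deposited raw counts per gene, unnormalized and with replicates kept apart. The table has the layout of featureCounts; its gene positions differ from GRCm38 and include a GRCm39 scaffold. The submitters' processing notes name fastp 0.19.4, HISAT2 2.2.1, DESeq2 1.40.2 and mm10; the counting program and its strand setting are not given in the sources used here. Gene length is the table's exon length.

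Genes passing filterByExpr (minimum count 10) were compared with edgeR 4.0.16 in R 4.3.3 (TMM, quasi-likelihood test, condition as the only term, Benjamini-Hochberg adjustment over all genes tested, two-sided). Standard errors were obtained from the F statistic and the fold change. Replicates are independent biological replicates per the methods.

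The 32 genes and all lists were chosen with earlier results of these data known. Named were the 32 genes, Cnot1, Mitf, Tfec, Fnip1, Fnip2 and, per related list, at most 3 called genes with the smallest adjusted p, of which some are not reported here; marker genes, overlapping genes and Cd63, Pip4p1 and Cd164 are named besides. The alternatives tried were scaling by DESeq2's size factors, by upper quartiles or by library totals, no filter, at least 1 CPM in 2 libraries, DESeq2 1.42.0, limma-voom (limma 3.58.1), the replicate number as a block, each library left out, the study's thresholds, and genes without exon overlap.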

Additional observations from a re-analysis of the deposited data

How the results depend on the processing

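With library totals in place of TMM the median of all genes tested moved from 0.0084 to 0.12. The median of the 32 lysosome genes was then 0.30, 0.19 above that of all genes as with TMM; 1 of the 32 was lower, 1563 genes of the table were lower, and of the related lists 51 were higher and 9 lower. With unfiltered counts, 9 of the 32 were higher, 1303 genes of the table were higher and 1450 lower, and of the related lists 16 were higher and 9 lower. At the study's thresholds 0 of the 32 were higher and 0 lower, and among the 20 with no exon overlap 10 were higher. Without 1 library at a time, where the lone library of a group is assumed to vary like the other group, 7 to 12 of the 32 were higher and 0 to 2 lower, with a median of 0.15 to 0.27; over all genes 743 to 1439 were higher and 871 to 1463 lower, and in the related lists 6 to 18 were higher and 4 to 9 lower. In these fits Ctsl ranged from -0.044 to 0.11, Cln3 from -0.074 to 0.29, Sqstm1 from -0.069 to 0.00052 and Fnip2 from -0.030 to 0.099. Library totals put Sqstm1 at 0.078 and Atp6v0d1 at 0.090, and upper-quartile scaling put Atp6v0d1 at 0.0024. In the 12 fits with another scaling, filter, tool, block or library set, none of the 18 calls changed sign and 7 passed in all. The replicate number as a block gave 14 higher and 2 lower, and the correlation between libraries of the same number, as deviations from their group means, was 0.011 across genes, so the numbers were not taken as pairs; with the block, Psap and Atp6v0a1 lost their calls (adjusted p = 0.0833 and 0.0506). The fits without 1 library used fewer samples, and the fit with unfiltered counts tested more genes. The cause of the lower counts was not tested.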
